A study of Mus musculus with 36 samples.

Results

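The diaphragm of mdx mice at 112 days was set against the diaphragm of mdx mice at 7 days, over 3 arrays of each age, which are 6 of the 36 arrays of a time course. The 3 arrays of control mice at 112 days and the 3 of control mice at 7 days gave the measure of normal maturation over the same interval. The mdx mouse carries a point mutation of Dmd on the X chromosome that stops production of full-length dystrophin, and it is the standard mouse model of Duchenne muscular dystrophy. Total RNA of each diaphragm was read on 1-colour Affymetrix arrays, and the other 24 arrays, of both genotypes at 14, 23, 28 and 56 days, entered the estimate of the spread and are described where the time course is given. The labels name no strain, sex or pooling, and nothing in them says that the 3 arrays of a group came from separate animals, and the p-values therefore cover only the variation among these arrays, possibly of technical origin. The question was which changes of normal maturation were blocked, kept or exaggerated in mdx diaphragm.

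Between the first days after birth and adulthood a mouse muscle replaces its embryonic and perinatal myosins with adult ones, withdraws its precursor cells from the cell cycle, reduces the synthesis of matrix and builds up its mitochondria. Dystrophin links the cytoskeleton of the fibre to laminin outside it, and fibres without it break, draw in macrophages and regenerate from satellite cells, which pass again through the embryonic programme. The diaphragm, the main muscle of breathing, is the mdx muscle in which fibrosis is known to build up most with age.

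The tissue label was borne out by its markers. Summed over 10 genes of skeletal muscle, signal ran from 251700 to 261600 in mdx at 112 days and from 149200 to 233900 in mdx at 7 days, against 165300 to 363700 in control at 112 days and 148800 to 186300 in control at 7 days. Array quality differed between the groups. Replicate 1 of mdx at 7 days lay at 38.8 on the leading principal component of all arrays, where replicates 2 and 3 lay at -22.4 and -17.3, and its correlation with them was as low as 0.884. Albumin (Alb), a liver protein, read above 10000 on that array, on mdx replicate 2 and control replicates 2 and 3 at 112 days, and on control replicate 3 at 7 days. For the Gapdh control probe sets, the 3' signal over the 5' signal, a measure of RNA integrity and labelling, was 0.532, 0.574 and 0.665 in mdx at 112 days and 0.83, 0.32 and 0.704 in mdx at 7 days, against 0.93, 0.518 and 0.81 in control at 112 days and 0.147, 0.0555 and 0.0357 in control at 7 days. The counts without the arrays concerned, and with the Gapdh ratio as a covariate, are given beside the classes.

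Dmd itself did not pass the test between the ages. Its probe set (93623_at) read 280.5, 311.2 and 547.6 in mdx at 112 days and 407.3, 712.3 and 439.8 in mdx at 7 days, against 1026, 762.7 and 447.3 in control at 112 days and 648.2, 752 and 756.6 in control at 7 days. The mdx values of both ages overlapped, and the age change was -0.44 ± 0.30 on the log2 scale in mdx (SE, adjusted p = 0.348) and -0.02 ± 0.30 in control (adjusted p = 0.96). The mdx mutation leaves a transcript that arrays can read, so the level checks the labels only in part. Utrn, which encodes utrophin, the relative of dystrophin at the neuromuscular junction, changed by -0.34 in mdx (92507_at, adjusted p = 0.452), against a fall of -0.99 in control (adjusted p = 0.00515). Its other probe set (92508_s_at) gave -0.32 in mdx (adjusted p = 0.634) and -1.31 in control (adjusted p = 0.00819), and neither probe set passed the test of the difference (adjusted p = 0.322 and 0.28).

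Fewer probe sets passed the test between the ages in mdx than in control diaphragm. Of 9291 tested, 1613 (17.4%) passed an adjusted p of 0.05 in limma in mdx, as 760 rises (8.18%) and 853 falls (9.18%). In control 3872 (41.7%) passed, as 1987 rises (21.4%) and 1885 falls (20.3%). The age change itself differed between the genotypes for 915 probe sets (9.85%), with 581 (6.25%) changing upward in mdx relative to control and 334 (3.59%) downward. The median spread between replicates was 0.296 and 0.317 in mdx at 112 and 7 days, against 0.308 and 0.191 in control (SD, log2), so a count of calls does not by itself measure how much changed. The control-called rises had a median log2 change of 0.36 in mdx and 1.00 in control, and 84% of them were above 0 in mdx. For the control-called falls the medians were -0.39 in mdx and -0.97 in control, and 81.6% were below 0 in mdx. Across the 9291 probe sets, which are not independent replicates, the age changes of mdx and control correlated with r = 0.571 and rho = 0.557.

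Each probe set called in control was placed by whether mdx passed the test in the same direction and whether the difference of the age changes passed. Kept means called in both with no called difference, and 891 probe sets (372 rises and 519 falls, 23% of those called in control) were kept. Blocked means not called in mdx with a called difference, and 570 (228 rises and 342 falls, 14.7%) were blocked. A further 105 (32 rises and 73 falls) were dampened, called in both but smaller in mdx, 27 (22 rises and 5 falls) were exaggerated, and 55 (14 rises and 41 falls of control) were reversed, called in the opposite direction in mdx. Another 143 (96 rises and 47 falls) were called in mdx and not in control with a called difference, termed mdx-only. The remaining 2224 (57.4%) passed neither in mdx nor in the difference and stayed undecided, so they show neither a block nor its absence. At 7 days 43 probe sets (0.463%) differed between mdx and control, 5 higher (0.0538%) and 38 lower (0.409%) in mdx. At 112 days 1131 (12.2%) did, 711 higher (7.65%) and 420 lower (4.52%) in mdx. These classes use the same 7- and 112-day values, so the following counts describe them and support nothing. Of the blocked probe sets, 15 were called different between the genotypes at 7 days and 396 at 112 days, and of the reversed ones 8 and 53. At 7 days 222 of the 228 blocked rises (97.4%) were already higher in mdx, against 54.6% of all probe sets. Their median log2 difference of mdx minus control was 0.43 at 7 days and -0.63 at 112 days. Of the 342 blocked falls 30 (8.77%) were higher in mdx at 7 days, with medians of -0.28 and 0.77. Of the 228 blocked rises 1 was called different between the genotypes at 7 days, and of the 342 blocked falls 14 were. The choice of the class itself favours such gaps at 7 days, so these shares and medians do not show whether the genotypes started alike.

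The blocked class rests in part on mdx replicate 1 at 7 days. Without it 277 probe sets were blocked, 254 of them among the 570, and 1334 were kept, with 1078 rises and 1077 falls in mdx. Of the 228 blocked rises 83 stayed blocked without that array and 132 became undecided, and of the 342 blocked falls 171 stayed. Reversed probe sets were less affected, with 12 of 14 rises and 32 of 41 falls in the same class, as were kept ones, with 336 of 372 rises and 489 of 519 falls. With the Gapdh ratio as a covariate 258 were blocked (228 of the 570), 678 kept, 59 dampened, 11 exaggerated and 26 reversed, with 1187 rises and 1104 falls called in control, and 19 of the differences of named genes lost the call. Without the 5 arrays of high albumin, which leaves 1 control array at 112 days that is assumed to vary like the others, 156 were blocked (107 of the 570) and 859 kept (515 of the 891). In that setting the upward differences called numbered 3 in the list of myogenic regulators (7 as reported), 4 in the matricellular list (7), 3 in the basement membrane list (6), 7 among matrix proteases (11) and 8 among annexins, galectins and S100 proteins (13).

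**Figure D1:**
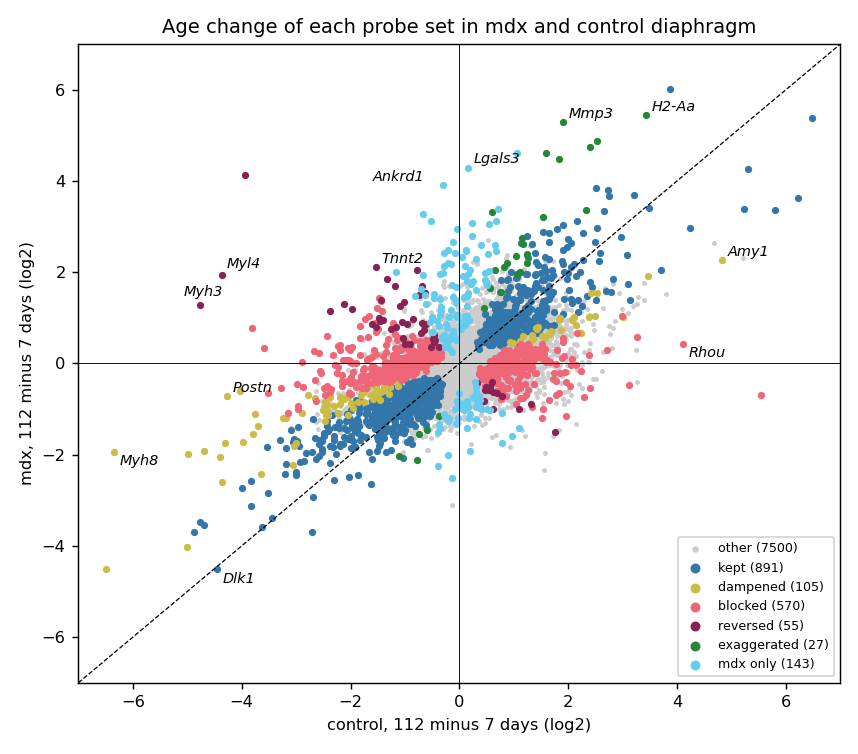
Log2 change from 7 to 112 days in mdx (vertical axis) against the same change in control (horizontal axis) for the 9291 tested probe sets, coloured by class, with the dashed line where both are equal. Reversed genes such as Myl4 and Myh3 lie above 0 in mdx and far below 0 in control, and the kept gene Dlk1 lies on the line at about -4.5.

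Of the 10 measured developmental contractile genes 4 were reversed in mdx, among them Myl4, Tnnt2 and Myh3. Myl4 (160487_at), the embryonic and atrial myosin light chain, read 19614, 26644 and 18172.5 in mdx at 112 days and 4083, 5687 and 7215 in mdx at 7 days, against 452.9, 311.1 and 128.3 in control at 112 days and 6654, 5632 and 6173 in control at 7 days. All 112-day mdx arrays lay above all 7-day mdx arrays, and in control the order was the opposite with no overlap. The log2 age change was 1.94 ± 0.26 in mdx (SE, adjusted p = 1.5e-06) and -4.37 in control, a difference of 6.30 ± 0.36 (adjusted p = 2.49e-13). Its other probe set (100828_at) was blocked, at 0.51 in mdx and -0.62 in control.

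Tnnt2, the cardiac troponin T that immature skeletal muscle also makes, rose by 2.11 ± 0.26 in mdx (adjusted p = 3.52e-07), with 3235, 4220 and 3362 at 112 days and 767.1, 851.1 and 799.2 at 7 days. In control it fell by 1.54, with 433, 330.1 and 193.1 at 112 days and 950, 983.9 and 897 at 7 days. Mybph, which encodes a myosin binding protein, rose by 1.15 in mdx and fell by 2.38 in control. Embryonic myosin heavy chain Myh3 read 5776, 6046 and 4365 in mdx at 112 days and 1378, 3082 and 2422 in mdx at 7 days, against 63.5, 336.7 and 16.5 in control at 112 days and 2393, 3068 and 4477 in control at 7 days. Its difference of 6.04 ± 0.63 (adjusted p = 8.23e-08) was far past the test, while its rise in mdx was close to the threshold (1.28 ± 0.45, adjusted p = 0.0436) and was lost without mdx replicate 1 at 7 days (0.96, adjusted p = 0.16) or without any of 4 other mdx arrays (adjusted p = 0.0593 to 0.122). Perinatal myosin heavy chain Myh8 fell in both genotypes, with -1.93 ± 0.30 in mdx and -6.34 in control, and so was dampened (difference 4.41 ± 0.42, adjusted p = 1.49e-08). Of the 10 measured developmental contractile genes 4 rose and 2 fell in mdx, against 0 rises and 7 falls in control, with median changes of 0.33 and -1.58, where all probe sets had 0.04 and 0.10. Bex1, a small protein of neurons and regenerating muscle, was also reversed (1.31 in mdx, -2.12 in control). The opposite reversal was seen in Tsc22d3, a glucocorticoid-induced regulator, which fell by 1.51 in mdx and rose by 1.76 in control.

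**Figure D2:**
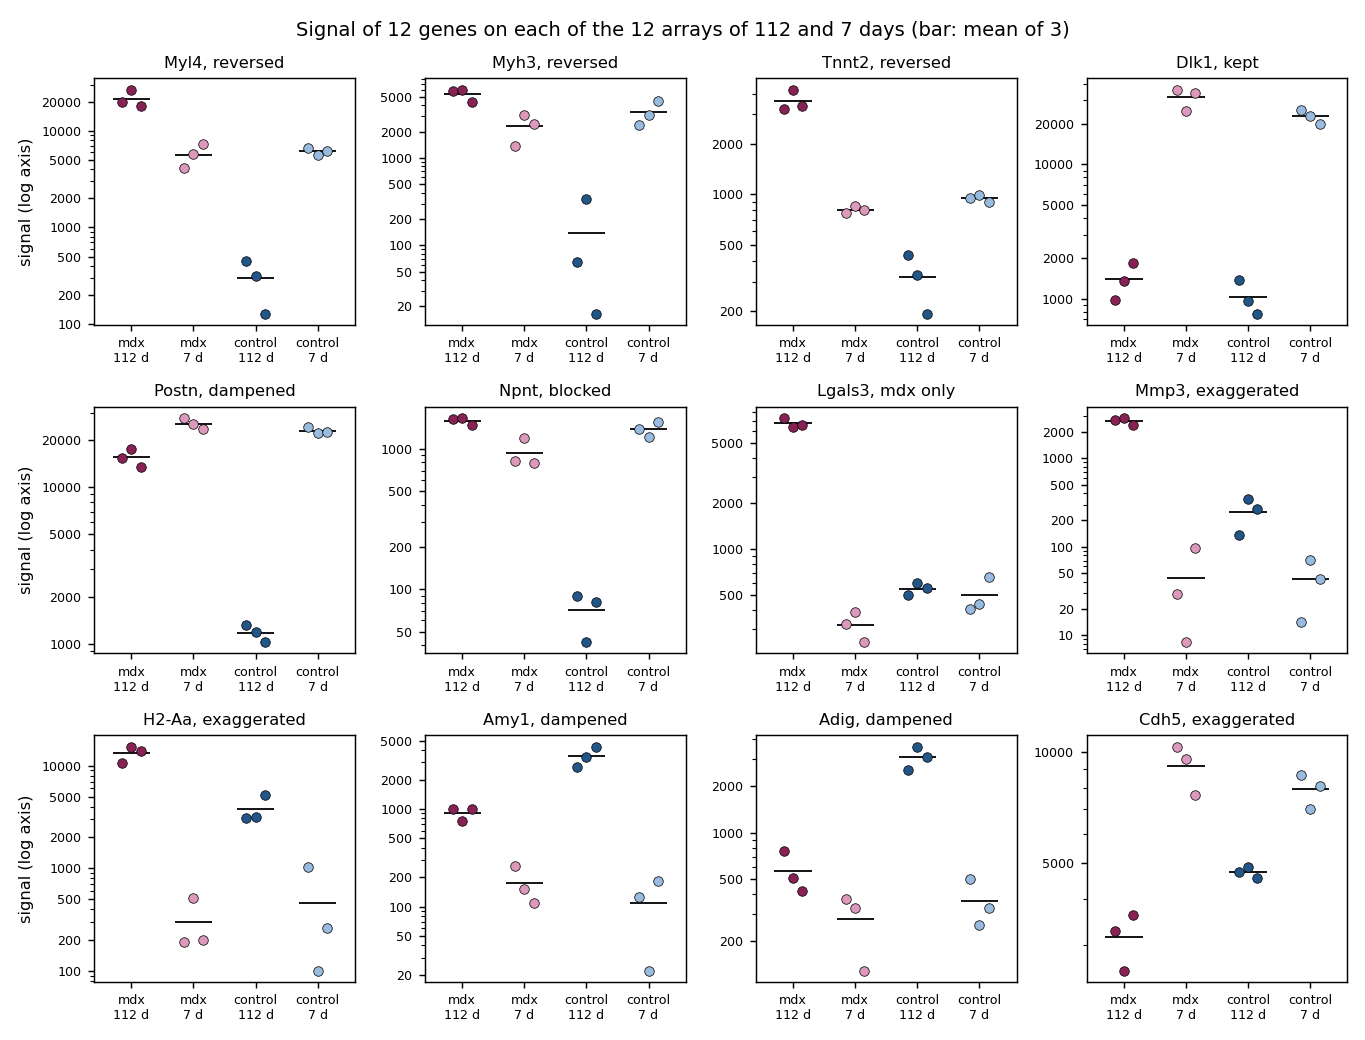
Signal (log axis) of 12 genes on each array of mdx at 112 and 7 days and control at 112 and 7 days, with the class of each gene in its title and a bar at the mean of 3 arrays. Myl4, Myh3 and Tnnt2 are highest in mdx at 112 days and lowest in control at 112 days, whereas Dlk1 is low at 112 days in both genotypes.

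Of the 10 myogenic regulators that fell in control 6 were blocked in mdx, and of the 5 receptor and junction genes that fell in control 3 were blocked. Myog, the regulator that drives myoblasts into differentiation, read 5105, 4719 and 3312 in mdx at 112 days and 4665, 3622 and 6622 in mdx at 7 days, against 1074, 342.6 and 1227 in control at 112 days and 4689, 5468 and 4093 in control at 7 days. The ages overlapped in mdx and were separate in control, with changes of -0.16 ± 0.30 in mdx (adjusted p = 0.777) and -2.56 in control, and the difference was 2.40 (adjusted p = 0.000403). Myod1, the master regulator of myogenesis, was blocked likewise (0.12 in mdx, -1.01 in control), as was Id2, an inhibitor of such regulators (0.12 in mdx, -0.92 in control). Myf5, a marker of satellite cells and myoblasts, was reversed, with 0.83 ± 0.22 in mdx (adjusted p = 0.00691) and -0.64 in control, but its mdx call was lost without mdx replicate 3 at 7 days (0.67, adjusted p = 0.0667). Of 16 measured myogenic genes 2 rose and 2 fell in mdx, against 2 rises and 10 falls in control, and 7 had a called upward difference, 5 without mdx replicate 1 at 7 days. Over all probe sets, for this list and those that follow, 8.18% rose and 9.18% fell in mdx. In control 21.4% rose and 20.3% fell, and 6.25% had a called upward difference between the genotypes.

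Chrna1, the alpha subunit of the muscle acetylcholine receptor, read 2940, 2834 and 2946 in mdx at 112 days and 2346, 3112 and 2964 in mdx at 7 days, against 682.3, 963.1 and 912.9 in control at 112 days and 3158, 3381 and 4044 in control at 7 days. Its change was 0.06 ± 0.16 in mdx (adjusted p = 0.852) and -2.02 in control, with a difference of 2.08 (adjusted p = 2.01e-07). Chrng, the fetal gamma subunit, changed by 1.05 ± 0.41 in mdx (adjusted p = 0.0814) and fell by 1.66 in control, and Chrnb1, the beta subunit, changed by -0.24 in mdx and fell by 1.42 in control. Of 8 measured receptor and junction genes 1 fell in mdx and 5 in control, and these 3 had a called difference, also without mdx replicate 1 at 7 days.

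The sequence upstream of these muscle genes was read for the E-box CAGCTG, the recognition sequence of MyoD, Myf5 and myogenin, to show where it lies. It reads the same on both strands and was searched in the 250 bases before each RefSeq gene start (build GRCm38.p6), with matches in capitals. Mybph held 1 match, 79 bases before its start, Chrng held 2, at 155 and 132 bases, and the annotated start of Tnnt2 used here, 1 of 2, held 2, at 223 and 157 bases. Myl4 and Myh3 held 0 in this window. The genes shown were picked after their values and matches were seen.
Mybph (chr1:134193198-134193447, plus strand): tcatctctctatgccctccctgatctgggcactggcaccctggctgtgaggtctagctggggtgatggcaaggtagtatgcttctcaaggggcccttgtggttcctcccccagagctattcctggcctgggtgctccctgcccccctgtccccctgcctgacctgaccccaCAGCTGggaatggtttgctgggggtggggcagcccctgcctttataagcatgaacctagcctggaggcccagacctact
Chrng (chr1:87205561-87205810, plus strand): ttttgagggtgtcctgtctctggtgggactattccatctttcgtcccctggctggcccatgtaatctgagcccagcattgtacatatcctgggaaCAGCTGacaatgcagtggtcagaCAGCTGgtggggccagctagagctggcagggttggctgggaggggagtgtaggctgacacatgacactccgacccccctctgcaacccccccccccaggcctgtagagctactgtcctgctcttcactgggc
Tnnt2 (chr1:135836084-135836333, plus strand): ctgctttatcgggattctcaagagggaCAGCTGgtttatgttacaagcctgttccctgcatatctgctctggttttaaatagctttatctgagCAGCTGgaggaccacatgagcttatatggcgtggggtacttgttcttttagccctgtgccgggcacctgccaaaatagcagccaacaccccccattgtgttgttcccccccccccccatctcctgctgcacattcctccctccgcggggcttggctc
Among genes with a promoter in the table, the E-box was present for 8 of 27 reversed falls (29.6%), 25 of 215 blocked falls (11.6%) and 25 of 318 kept falls (7.86%), against 611 of 5433 tested genes (11.2%) and 4271 of 32851 promoters of the same length (13%). These shares are descriptions of small sets and were not tested.

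Among partners of dystrophin at the membrane 3 were kept, 3 blocked and 4 undecided. Of 13 measured genes of the dystrophin complex 3 fell in mdx and 9 in control. The kept falls were Sspn, which encodes sarcospan (-0.89 ± 0.13 in mdx, -0.82 in control), Sgce, epsilon sarcoglycan (-0.81 and -1.08), and Dag1, dystroglycan (-0.46 and -0.63). The mdx fall of Dag1 was lost without mdx replicate 3 at 112 days (-0.34, adjusted p = 0.0665). Lama2, the laminin chain that dystroglycan binds, was blocked, with 3204, 3440 and 4047 in mdx at 112 days and 2925, 3676 and 3196 in mdx at 7 days, against 1580, 1581.5 and 1876 in control at 112 days and 3304, 3325 and 4032 in control at 7 days (difference 1.19, adjusted p = 0.000216). The caveolin of muscle membranes, Cav3, was blocked too (-0.02 in mdx, -0.89 in control, adjusted p of the difference = 0.00138). The called upward difference of Sgcb, beta sarcoglycan, was lost without any of 9 single arrays (adjusted p = 0.0572 to 0.143).

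The postnatal shutdown of imprinted growth genes was kept in direction. These genes form a network that is high in the fetus and newborn and falls as growth slows. Dlk1, a Notch-like inhibitor of differentiation, read 980.1, 1342 and 1852 in mdx at 112 days and 36143, 24945 and 33927 in mdx at 7 days, against 1376, 959.4 and 772.8 in control at 112 days and 25296, 23155 and 19938 in control at 7 days. Every 112-day array lay below every 7-day array in both genotypes, and the falls were -4.51 ± 0.22 in mdx (adjusted p = 1.79e-15) and -4.45 in control, with a difference of -0.06 (adjusted p = 0.937). Of 14 measured imprinted genes 11 fell in each genotype, and the medians were -1.44 in mdx and -2.33 in control. Plagl1, a zinc finger regulator of this network, was kept (-3.55 in mdx, -4.69 in control). Peg3, a regulator of satellite cells and cell death, fell by 1.20 ± 0.13 in mdx and fell by 3.25 in control and was dampened (difference 2.05, adjusted p = 3.99e-09), as were Mest, a hydrolase (-2.59 in mdx, -4.36 in control, adjusted p of the difference 0.26 without the arrays of high albumin), and the cell cycle inhibitor Cdkn1c (-1.81 in mdx, -3.03 in control). Ndn, necdin, was dampened by less (-2.24 in mdx, -3.05 in control), and this difference was lost without any of 6 single arrays (adjusted p = 0.0618 to 0.135). Meg3, the noncoding RNA next to Dlk1, fell on both probe sets, with -4.02 in mdx and -5.0 in control on 160173_at, and -2.64 and -1.63 on 160172_at. Igf2, the fetal growth factor, was called higher at 112 days in both genotypes on probe set 98623_g_at (3.35 in mdx, 2.65 in control), against the known decline of this gene after birth, and its other probe set was too dim to be tested.

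Further kept genes with large falls in mdx were Agtr2, a receptor of angiotensin in the fetus (-3.69), the muscle fructose bisphosphatase Fbp2 (-3.69), the kinase Nrk (-3.58) and Eln, which encodes elastin (-3.39). Frzb, an inhibitor of Wnt signals (-2.93), and the linker histone H1f10 (-2.85) were also among them. Kcne1l, a potassium channel subunit, fell by 4.51 in mdx and fell by 6.5 in control, and the called difference of 2.00 was lost without any of 7 single arrays. Capn6, a calpain without protease activity, gave -1.99 in mdx and -4.99 in control on 97942_g_at (dampened), and -2.72 and -3.99 on 97941_at (kept).

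Cell cycle genes fell in both genotypes. Cdk1, the kinase of mitosis, read 320.4, 137.7 and 557.1 in mdx at 112 days and 1481, 2339 and 2029 in mdx at 7 days, against 149.7, 83.9 and 122.6 in control at 112 days and 2076, 1983 and 2146.5 in control at 7 days. The ages did not overlap in either genotype, and the changes were -2.57 ± 0.51 in mdx (adjusted p = 0.000429) and -3.82 in control. Of 28 measured genes 0 rose and 14 fell in mdx, against 1 rise and 24 falls in control, with medians of -0.77 and -1.40. Kept falls were Ccnd2, a cyclin of the start of the cycle (-2.56 in mdx, -2.30 in control), Stmn1, a tubulin regulator (-1.77 and -2.57), and Ccnd1 (-0.91 and -0.75). In 2 of the 28 genes the age change was called higher in mdx than in control, and 12 genes were kept and 11 undecided.

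Matrix genes divided by type. Of 22 measured genes of basement membrane, elastic fibres and nonfibrillar collagens 2 rose and 16 fell in mdx, against 0 rises and 19 falls in control, and 13 were kept. Col15a1, a collagen of the basement membrane zone, gave -1.25 in mdx and -1.72 in control, and Nid2, nidogen, -1.99 and -2.27. Eln on its brighter probe set (92836_at) gave -1.86 in mdx and -2.0 in control. Col6a3, a chain of the collagen VI microfibrils around fibres, was blocked (-0.40 in mdx, adjusted p = 0.0506, and -1.94 in control, difference 1.54, adjusted p = 4.15e-06), and Mfap2, a microfibril protein, was dampened (-2.43 in mdx, -3.64 in control).

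The fibrillar collagens and matricellular proteins kept less of their decline. Postn, periostin, a matrix protein of growing and scarring tissue, read 15473.5, 17696 and 13493 in mdx at 112 days and 27722, 25316 and 23640 in mdx at 7 days, against 1313, 1181 and 1023 in control at 112 days and 24380, 22146 and 22515 in control at 7 days. The 7-day arrays of both genotypes overlapped, and the mdx arrays of 112 days lay between them and the control arrays of 112 days. The change was -0.72 ± 0.16 in mdx (adjusted p = 0.00184) and -4.26 in control, a difference of 3.54 ± 0.23 (adjusted p = 3.92e-12). Col5a2 and Col1a2, chains of the fibrils of collagens V and I, gave -0.76 and -0.86 in mdx, against -2.65 and -2.48 in control. Col3a1, collagen III, changed by -0.38 in mdx (adjusted p = 0.093) and fell by 1.82 in control, and was blocked. Of 16 measured genes of fibrillar collagens and their processing 7 fell in mdx and 10 in control, and 7 had a called upward difference, 5 without mdx replicate 1 at 7 days. The 14 measured matricellular proteins and proteoglycans had 1 rise and 6 falls in mdx, against 0 rises and 11 falls in control, with 7 called upward differences. Tnc, tenascin C, was blocked (0.26 in mdx, -2.68 in control), as was the integrin ligand Npnt (0.77 in mdx, -3.80 in control, difference 4.57, adjusted p = 7.12e-07). Lum, lumican, was reversed, with 19390, 19334 and 18715 in mdx at 112 days and 13754, 14857 and 14331 in mdx at 7 days, against 6560.5, 6509 and 6620 in control at 112 days and 12482.5, 12706 and 14340 in control at 7 days. C1qtnf3, a secreted protein of growing cartilage and muscle matrix, fell by 0.59 in mdx (adjusted p = 0.0436, lost without any of 6 single arrays) and fell by 4.03 in control. Adam19, a membrane protease (0.03 in mdx, -2.89 in control), and the adhesion molecule Pcdh7 (0.61 in mdx, -2.43 in control, adjusted p of the difference 0.0778 with the Gapdh ratio as a covariate) were blocked falls as well. In whole tissue, fewer cells of a type and less RNA per cell cannot be told apart, here and in the results that follow.

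Matrix proteases and their inhibitors rose more in mdx than in control. Of 20 measured genes 10 rose and 1 fell in mdx, against 5 rises and 5 falls in control, and 11 had a called upward difference, also without mdx replicate 1 at 7 days. Mmp3, stromelysin, read 2710, 2836.5 and 2361 in mdx at 112 days and 29.6, 8.4 and 96.1 in mdx at 7 days, against 135.5, 348.8 and 265.2 in control at 112 days and 14.1, 71.1 and 43.1 in control at 7 days. It rose by 5.28 ± 0.54 in mdx (adjusted p = 1.21e-08) and by 1.91 in control, so the rise was exaggerated (difference 3.37, adjusted p = 0.00373, and 2.52 with adjusted p = 0.0898 with the Gapdh ratio as a covariate), and values near the pseudocount make its size uncertain. Macrophage elastase Mmp12 (95339_r_at) rose by 4.60 in mdx and by 1.59 in control, and on its other probe set by 2.49 in mdx with -0.20 and no call in control. Ctsc, which activates granule proteases, was mdx-only (1.80 in mdx, 0.14 in control). Mmp9, gelatinase B, was a blocked fall with low mdx values at both ages. It read 46.4, 101.2 and 266.7 in mdx at 112 days and 84.4, 74.5 and 90.3 in mdx at 7 days, against 86.4, 95.9 and 68.8 in control at 112 days and 389.9, 2516 and 2436.5 in control at 7 days. Control replicates 2 and 3 at 7 days were high. The difference of 3.93 lost the call without the arrays of high albumin (3.55, adjusted p = 0.0702). Mmp9 is also a gene of neutrophils, whose 14 markers summed to 7713 to 12890 in mdx at 112 days and 8895 to 10640 in mdx at 7 days, against 9315 to 13300 in control at 112 days and 7785 to 31030 in control at 7 days. Of 10 measured neutrophil markers 1 rose in mdx, against 1 rise and 4 falls in control, and their part in the result was not tested. Over all probe sets 8.18% rose in mdx, and 21.4% rose and 20.3% fell in control.

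Macrophage genes separated the genotypes. Of 23 measured markers 15 rose and 0 fell in mdx, against 6 rises and 1 fall in control, and 12 had a called upward difference (12 without mdx replicate 1 at 7 days, 6 without the 5 arrays of high albumin). The summed signal of 24 markers ran from 89060 to 90440 in mdx at 112 days and from 21130 to 28880 in mdx at 7 days, against 26140 to 29640 in control at 112 days and 20010 to 22090 in control at 7 days. Lgals3, galectin 3 of activated macrophages, read 7302, 6375 and 6552 in mdx at 112 days and 323.8, 388.4 and 244.5 in mdx at 7 days, against 498.3, 600.3 and 551.1 in control at 112 days and 406.6, 433.8 and 655.1 in control at 7 days. It was an mdx-only rise, at 4.29 ± 0.33 in mdx (adjusted p = 5.38e-11) and 0.16 in control. Ctss, cathepsin S, a protease of antigen-presenting cells, rose by 3.33 in mdx and by 0.60 in control, and lysozyme Lyz2 by 2.62 and 1.18, both exaggerated. Cd52, a small surface protein of leukocytes, rose by 2.05 in mdx and by 0.65 in control. Other mdx-only rises were the leukocyte tetraspanin Cd53 (3.27 in mdx, -0.66 in control), the B cell surface protein Cd72 (2.95 and -0.05), and Ncf4, a subunit of the phagocyte oxidase (2.00 and -1.16, adjusted p of the difference 0.0517 with the Gapdh ratio as a covariate). The receptor Lilr4b belonged there too (3.38 in mdx, 0.72 in control, adjusted p = 0.0601 in control).

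Most class II genes rose in mdx, and 6 of 11 had a called upward difference and 1 a downward one. H2-Aa, the alpha chain of a class II molecule, read 10690, 15363 and 13839 in mdx at 112 days and 189.8, 512.3 and 202.2 in mdx at 7 days, against 3065, 3161.5 and 5188 in control at 112 days and 1021, 101.1 and 262.5 in control at 7 days. Every 112-day array was above every 7-day array in both genotypes, with rises of 5.44 ± 0.40 in mdx (adjusted p = 3.41e-11) and 3.43 in control. The difference of 2.01 (adjusted p = 0.0217) was lost without mdx replicate 1 at 7 days (1.78, adjusted p = 0.076) and without any of 5 other arrays (adjusted p = 0.0507 to 0.0827). H2-Ab1, the beta chain, rose by 4.88 in mdx and by 2.53 in control (difference 2.34, adjusted p = 0.00844, and 0.0612 without the arrays of high albumin). The invariant chain Cd74 rose by 3.36 in mdx and by 2.33 in control, a difference of 1.03 (adjusted p = 0.0202) that was lost without any of 4 single arrays (adjusted p = 0.0517 to 0.0953). Of 11 measured genes of class II presentation 8 rose and 0 fell in mdx, against 7 rises and 1 fall in control, and the called upward differences numbered 3 without the 5 arrays of high albumin. Ciita, the transactivator of class II genes, had the downward difference, as a blocked rise (0.11 in mdx, 1.89 in control, difference -1.78, adjusted p = 0.0322). This difference was lost without any of 7 single arrays (adjusted p = 0.0501 to 0.0891), and the values of Ciita were known when it was chosen for mention.

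Of 10 measured class I genes 7 rose in mdx and 6 in control, with 2 called differences. H2-K1 was kept (1.82 in mdx, 1.56 in control), while Psmb8, a subunit of the immunoproteasome, was mdx-only (1.62 in mdx, 0.31 in control). Interferon response genes had 16 rises and 1 fall of 19 in mdx, against 8 rises and 1 fall in control, and 4 called differences, 2 without mdx replicate 1 at 7 days and 2 without the arrays of high albumin. Among them Gbp2 was kept (1.61 in mdx, 1.24 in control) and Ifi204 was exaggerated (2.19 and 0.88). Of 10 complement genes 7 rose in mdx and 3 in control. C1qa and C1qb, chains of the complement starter C1q made by macrophages, rose by 2.13 and 1.97 in mdx and gave 0.10 and -0.35 with no call in control. Of 14 chemokine and receptor genes 9 rose and 1 fell in mdx, against 6 rises and 1 fall in control, and Cxcl9, a chemokine induced by interferon gamma, was mdx-only (3.12 in mdx, -0.52 in control). The monocyte receptor Ccr2 was kept (3.03 in mdx, 1.91 in control). Markers of B and plasma cells rose in both, with 4 of 9 called in each, such as Jchain, the joining chain (2.77 in mdx, 2.98 in control). The immunoglobulin light chain probe sets Igkv6-23 (6.01 in mdx, 3.87 in control) and Igkv6-14 (3.66 and 2.74) read members of a family of similar sequence and are uncertain as to which gene they read.

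For 3 class II genes that rose and 3 cell cycle genes that fell, a shared motif near the start is shown. The Y box TGATTGG is bound by the factor NF-Y in class II promoters and, with its reverse complement CCAATCA, in many promoters of mitotic genes. It was searched on both strands in the same 250 bases, and the last 120 bases before the start are shown, with the match in capitals. H2-Eb1, another class II beta chain (3.11 in mdx, 2.15 in control), and H2-DMb1, which loads peptides on class II (1.83 and 1.51), were kept rises. Top2a, the topoisomerase of mitosis (-1.95 in mdx, -2.71 in control, mdx call lost without mdx replicate 2 at 112 days at -1.49, adjusted p = 0.0773), and Ccnb2, cyclin B2 (-0.81 and -1.17, mdx call lost without mdx replicate 1 at 112 days or 3 at 7 days, adjusted p = 0.0654 and 0.0913), were kept falls. These 4 were named after their values were seen, and the sequences were chosen because they hold the motif.
H2-Aa (chr17:34287824-34287943, minus strand): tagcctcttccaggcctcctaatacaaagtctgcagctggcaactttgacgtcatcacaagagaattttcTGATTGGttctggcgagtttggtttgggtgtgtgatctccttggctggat
H2-Eb1 (chr17:34305747-34305866, plus strand): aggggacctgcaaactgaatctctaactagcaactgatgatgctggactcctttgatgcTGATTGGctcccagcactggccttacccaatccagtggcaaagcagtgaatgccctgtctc
H2-DMb1 (chr17:34153071-34153190, plus strand): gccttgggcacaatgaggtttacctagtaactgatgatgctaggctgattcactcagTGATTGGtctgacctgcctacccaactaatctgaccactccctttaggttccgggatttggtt
Cdk1 (chr10:69352913-69353032, minus strand): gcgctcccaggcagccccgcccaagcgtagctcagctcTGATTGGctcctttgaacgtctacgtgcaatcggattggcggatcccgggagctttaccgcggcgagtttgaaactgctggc
Top2a (chr11:99024190-99024309, minus strand): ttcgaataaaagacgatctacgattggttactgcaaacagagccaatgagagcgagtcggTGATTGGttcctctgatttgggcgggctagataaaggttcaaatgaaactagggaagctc
Ccnb2 (chr9:70421555-70421674, minus strand): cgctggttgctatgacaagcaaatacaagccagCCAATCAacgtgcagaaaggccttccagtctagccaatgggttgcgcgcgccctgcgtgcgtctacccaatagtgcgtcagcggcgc
The match began 50 to 63 bases before the start in the 3 class II genes, and 82, 60 and 87 bases before it in Cdk1, Top2a and Ccnb2. The motif was present for 26 of 222 kept rises (11.7%) and 33 of 318 kept falls (10.4%), against 526 of 5433 tested genes (9.68%) and 2375 of 32851 promoters (7.23%), which was not tested.

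Genes known from injury and stress were among the mdx-only rises. Ankrd1, a stretch-responsive protein of the sarcomere, read 7950, 6089 and 8021 in mdx at 112 days and 622.7, 359.5 and 422.7 in mdx at 7 days, against 390.6, 303.8 and 235.3 in control at 112 days and 337, 396.3 and 416.2 in control at 7 days. Only the mdx arrays of 112 days were high, and the change was 3.91 ± 0.31 in mdx (adjusted p = 1.1e-10) and -0.30 in control. Mt2, a metallothionein, rose by 2.42 in mdx and gave -0.29 in control. Of 21 measured annexins, galectins and S100 proteins 7 rose and 1 fell in mdx, against 1 rise and 10 falls in control, and 13 had a called upward difference, 9 without mdx replicate 1 at 7 days. S100a4 rose by 2.78 in mdx (0.22 in control) and the membrane repair protein Anxa1 by 2.04 (0.20 in control), while S100a1, a calcium sensor of adult fibres, was kept (1.61 in mdx, 2.02 in control). Tmsb10, an actin-binding peptide of young cells, was a blocked fall, with 25702, 25138 and 23894 in mdx at 112 days and 16399, 23907 and 24903 in mdx at 7 days, against 3188, 3428 and 5307 in control at 112 days and 25339, 20125 and 24960 in control at 7 days. Cdkn1a, the p21 inhibitor of the cell cycle, was reversed (1.53 in mdx, -0.63 in control, difference 2.17, adjusted p = 1.36e-05).

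Called downward differences were found in 9 of 23 genes of fatty acid oxidation and uptake, 5 of 18 of the citrate cycle, 4 of 55 of oxidative phosphorylation and 4 of 23 of glycolysis, and most members passed no test of the difference. Over all probe sets 3.59% had a called downward difference, for this list and those that follow. Rises were called for 8.18% of all probe sets in mdx and 21.4% in control, and falls for 9.18% and 20.3%. Of 23 measured genes of fatty acid oxidation and uptake 0 rose and 10 fell in mdx, against 9 rises and 2 falls in control, with medians of -0.33 and 0.30, and 9 had a called downward difference. Slc25a20, the carrier that brings acylcarnitine into mitochondria, read 6286, 5224 and 5483 in mdx at 112 days and 9405, 11141 and 14401 in mdx at 7 days, against 10790, 11375 and 13060 in control at 112 days and 11599, 9959 and 11851 in control at 7 days. It fell by 1.02 ± 0.14 in mdx (adjusted p = 2.33e-06) and gave 0.08 in control, so it was mdx-only, as was Hadh, an enzyme of the oxidation spiral (-0.96 in mdx, -0.02 in control). Cd36, which takes up fatty acids (-0.08 in mdx, 1.12 in control), Lpl, lipoprotein lipase (-0.08 and 1.34), and Etfa, an electron carrier (0.09 and 1.03), were blocked rises. The 9 called differences became 12 without mdx replicate 1 at 7 days and 1 without the 5 arrays of high albumin, a setting that leaves 1 control array at 112 days.

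In the citrate cycle 0 of 18 genes rose and 2 fell in mdx, against 8 rises and 0 falls in control. Suclg2, a subunit of succinyl-CoA ligase, was blocked (0.02 in mdx, 0.85 in control, adjusted p of the difference = 0.00583). The called downward differences of this list numbered 1 without mdx replicate 1 at 7 days and 0 without the arrays of high albumin. In oxidative phosphorylation 1 of 55 genes rose and 0 fell in mdx, against 18 rises and 2 falls in control, with medians of 0.07 and 0.48. Cox7a1, the muscle isoform of a subunit of cytochrome oxidase, read 17785, 12894 and 12550 in mdx at 112 days and 14551, 12939 and 11829 in mdx at 7 days, against 22243, 19422 and 24041 in control at 112 days and 11972, 9364 and 11050.5 in control at 7 days. It was blocked (0.12 in mdx, 1.02 in control, adjusted p of the difference = 0.00899), and the called downward differences of this list numbered 1 without mdx replicate 1 at 7 days and 0 without the arrays of high albumin. The other genes of this list passed no test of the difference, which does not show that they matured alike. Of 23 genes of glycolysis and glycogen 3 rose and 3 fell in mdx, against 9 rises and 4 falls in control, and Hk2, the hexokinase of muscle, was dampened (0.73 in mdx, 1.87 in control, difference -1.14, adjusted p = 0.00015). The called downward differences of this list numbered 2 without the arrays of high albumin. Ckmt2, the mitochondrial creatine kinase of muscle, was dampened on 162015_f_at (0.67 in mdx, 2.23 in control) and undecided on its other probe set.

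The largest blocked and dampened rises included genes of fat and liver. Amy1, an amylase, read 1001, 753.2 and 993.7 in mdx at 112 days and 260.2, 152.9 and 108.9 in mdx at 7 days, against 2680, 3426 and 4367 in control at 112 days and 125.1, 22.1 and 181.3 in control at 7 days, and was dampened (difference -2.57, adjusted p = 0.00133). Adig, an adipocyte protein, rose by 1.01 in mdx (lost without mdx replicate 1 at 112 days or 3 at 7 days, adjusted p = 0.0993 and 0.217) and by 3.01 in control. Scd1, a desaturase of fat cells, rose by 1.91 in mdx and by 3.46 in control. Summed over 13 adipocyte markers, signal ran from 25070 to 38660 in mdx at 112 days and from 17010 to 21930 in mdx at 7 days, against 66490 to 79350 in control at 112 days and 28290 to 36060 in control at 7 days. Of the 13 markers 3 rose in mdx and 7 in control, and 2 had a called downward difference, 0 without mdx replicate 1 at 7 days. The part of fat tissue in these samples was not tested.

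Rhou, a small GTPase, was a blocked rise on 162011_f_at (0.43 in mdx, 4.11 in control) and dampened on 96747_at (1.01 in mdx, 2.37 in control). The ribosomal probe set Rpl41 (100213_f_at) read 3303, 2341 and 2978 in mdx at 112 days and 27571, 472.1 and 7198 in mdx at 7 days, against 43025, 16659 and 34855 in control at 112 days and 1605, 212.9 and 587.9 in control at 7 days. Its mdx 7-day arrays spanned more than the difference between ages, and the same array, replicate 1, was the highest of its age in mdx for the blocked rises Ces1d, a carboxylesterase of liver and fat, Mob2, Kif9 and Cela1. Liver markers summed to 12730 to 45120 in mdx at 112 days and 11240 to 122500 in mdx at 7 days, against 15210 to 186600 in control at 112 days and 7065 to 87010 in control at 7 days, and of 20 measured 1 rose in mdx and 5 in control. Mup3, a liver and urinary protein, followed the albumin-rich arrays (476.7, 9175 and 509.6 in mdx at 112 days), and its rise was lost without mdx replicate 2 at 112 days (2.25, adjusted p = 0.214), or replicates 2 or 3 at 7 days (adjusted p = 0.0764 and 0.0783).

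Of 13 endothelial genes 4 had a called downward difference. Of these 2 were exaggerated falls, 1 was an mdx-only fall and 1 was a blocked rise. Cdh5, the cadherin of endothelial junctions, read 3272, 2556 and 3611 in mdx at 112 days and 10336, 9550 and 7656 in mdx at 7 days, against 4729, 4874 and 4557 in control at 112 days and 8660, 6991 and 8077 in control at 7 days. The ages were separate in both genotypes, with changes of -1.54 ± 0.14 in mdx (adjusted p = 7.36e-10) and -0.74 in control, a difference of -0.80 ± 0.19 (adjusted p = 0.00623, and 0.241 without the arrays of high albumin). Sox18, a transcription factor of vessels, was likewise exaggerated (-1.45 in mdx, -0.59 in control, adjusted p of the difference 0.163 without the arrays of high albumin), and Cldn5, a claudin of tight junctions, was kept (-1.60 in mdx, -1.99 in control). Of 13 measured markers 9 fell in mdx and 5 in control, with 4 called downward differences, 7 without mdx replicate 1 at 7 days and 0 without the 5 arrays of high albumin. Their summed signal ran from 23180 to 27910 in mdx at 112 days and from 44860 to 58700 in mdx at 7 days, against 32140 to 39710 in control at 112 days and 46210 to 52950 in control at 7 days. Of 8 Schwann cell markers 2 fell in mdx, against 1 rise and 2 falls in control, of 6 mesothelial markers 3 fell in mdx and 2 rose in control, and of 10 red cell markers 1 rose and 4 fell in mdx, against 1 rise and 3 falls in control. Over all probe sets 8.18% rose and 9.18% fell in mdx, and 21.4% rose and 20.3% fell in control. Counts this small are not read as results about these cells. Efnb2, the ephrin of arterial endothelium, was an mdx-only fall (-2.0 in mdx, -0.22 in control), as was Bmp6, a growth factor, on 161028_at (-1.22 and 0.31). The other Bmp6 probe set (92372_at) passed no test, with -0.61 in mdx (adjusted p = 0.204), 0.56 in control (adjusted p = 0.158) and a difference of -1.17 (adjusted p = 0.1).

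**Figure D3:**
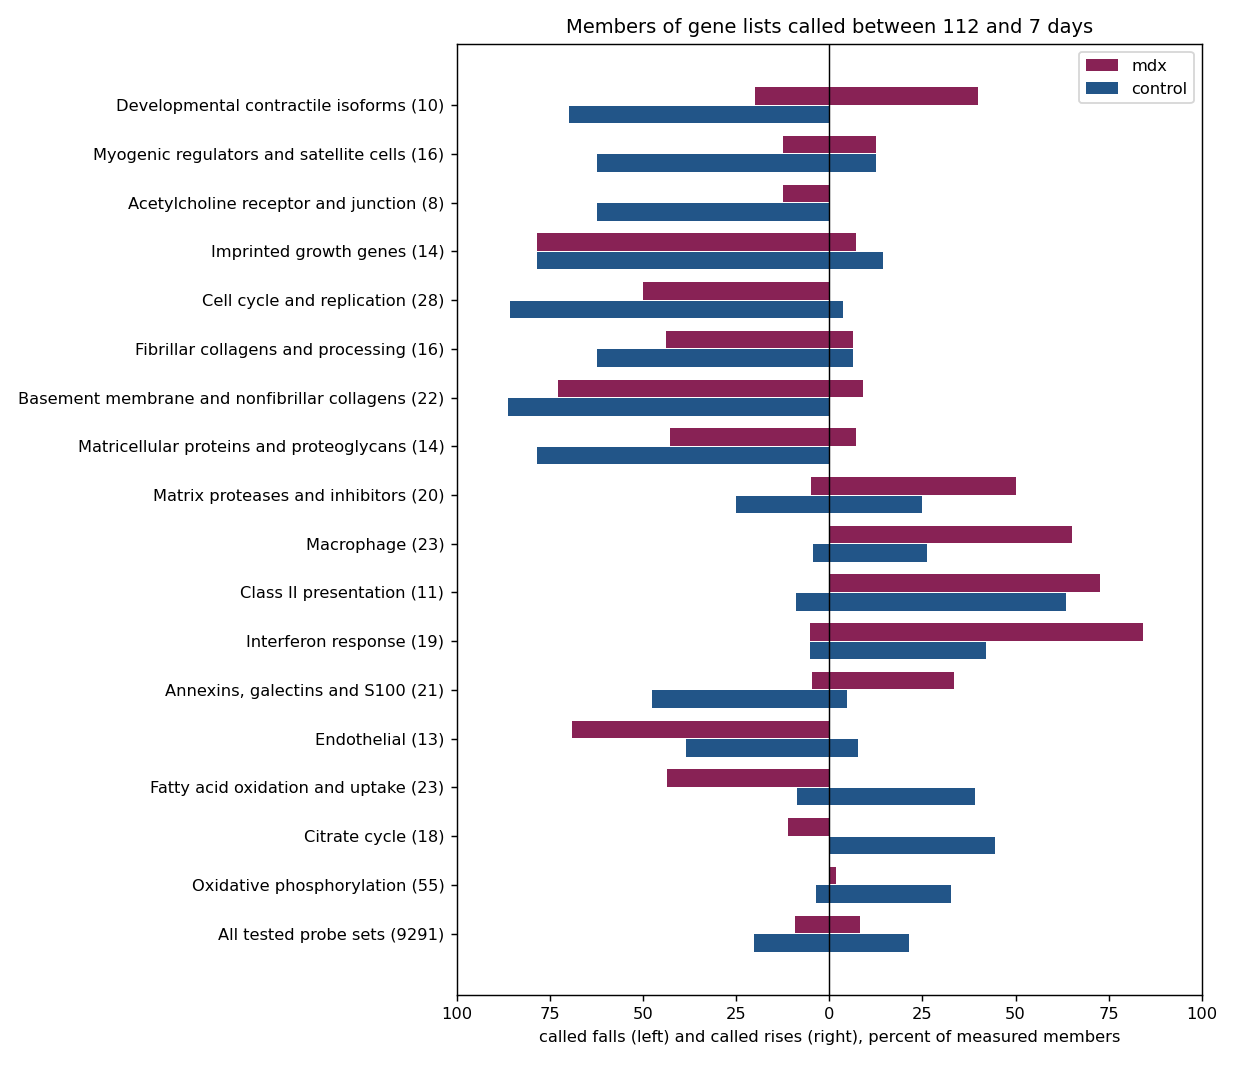
Percent of the measured members of 17 gene lists, and of all tested probe sets, called falling (left) or rising (right) between 7 and 112 days, with mdx above control in each pair of bars and the number measured in brackets. Imprinted and cell cycle genes fall in both genotypes, of macrophage markers 15 of 23 rise in mdx and 6 in control, and of fatty acid oxidation genes 0 of 23 rise in mdx and 9 in control.

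The ages between the 2 ends were read for the same probe sets. The comparisons behind the classes did not use their levels, but their arrays entered the filter and the shared estimate of the spread. The reversed falls were higher in mdx than in control for 30, 36, 40 and 38 of 41 probe sets at 14, 23, 28 and 56 days, with a median log2 difference of mdx minus control of 0.73 at 23 days, 0.95 at 28 and 1.17 at 56. For all probe sets the share higher in mdx was 49.4% at 14 days, 48.4% at 23, 44.8% at 28 and 61.6% at 56. The blocked falls were higher in mdx for 219 of 342 (64%) at 14 days, 262 (76.6%) at 23, 292 (85.4%) at 28 and 283 (82.7%) at 56. The blocked rises were higher in mdx for 101 of 228 (44.3%) at 14 days, 62 (27.2%) at 23, 27 (11.8%) at 28 and 97 (42.5%) at 56, so their position below control was less even over the ages. Of the 32 dampened rises 1 was higher in mdx at 56 days, and of the 73 dampened falls 71 were. The mdx-only rises were higher in mdx for 80 of 96 at 14 days and for 83, 86 and 85 at 23, 28 and 56 days. On the leading principal component the arrays of 14 days lay between 28.7 and 46.4 and those of 23 days between -53.9 and -38.7. Both genotypes lay together at 14 and at 23 days. At 56 days they lay apart, at -0.2 to 10.7 in control and 20.8 to 28.3 in mdx. The counts above set levels against each other within an age, and the part of this shift in those of 56 days was not tested. The arrays of 112 days lay between 11.8 and 46, and those of 7 days between -33 and -12.3, apart from mdx replicate 1 at 38.8. The change from 7 to 112 days thus lies in part along this component, and whether any of it is technical was not tested.

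Among single genes, the embryonic ones first declined in mdx. Myl4 averaged 5662, 2842, 11540, 19160, 15750 and 21480 in mdx at 7, 14, 23, 28, 56 and 112 days, and 6153, 1299, 538.4, 571.8, 273.7 and 297.4 in control. The lowest mdx age was thus 14 days, and the mdx arrays of 23 days (8595 to 14540) lay above those of 7 days (4083 to 7215). Courses across ages, here and for the genes below, are descriptions only. The arrays of 14 and 23 days stand apart on the leading component, and the part of this shift in the courses was not tested. Myh3 was also lowest at 14 days in mdx, with 2294, 552.9, 2817, 8674, 6223 and 5396 in mdx and 3313, 399.9, 138.3, 146.4, 132.9 and 138.9 in control. Unlike Myl4 it was highest at 28 days, and its mdx arrays of 23 days (1867.5 to 4699) overlapped those of 7 days (1377.6 to 3082.4). Myh8 declined to 2857 at 14 days in mdx and to 2304 in control, and stood at 4037 to 6291 in mdx from 23 days on, against 287.9 to 407.2 in control. Postn was alike in both at 14 days (13880 in mdx, 13590 in control) and reached 20620 at 28 days in mdx, against 5455 in control. Dlk1 declined in both genotypes by 23 days (2294 in mdx, 1268 in control). Lgals3 averaged 1034 in mdx at 14 days and 5192 at 23 days, against 295.6 and 377.2 in control. H2-Aa was at 2691 in mdx by 14 days, against 278.9 in control, and at 6480 and 3074 at 23 days.

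**Figure D4:**
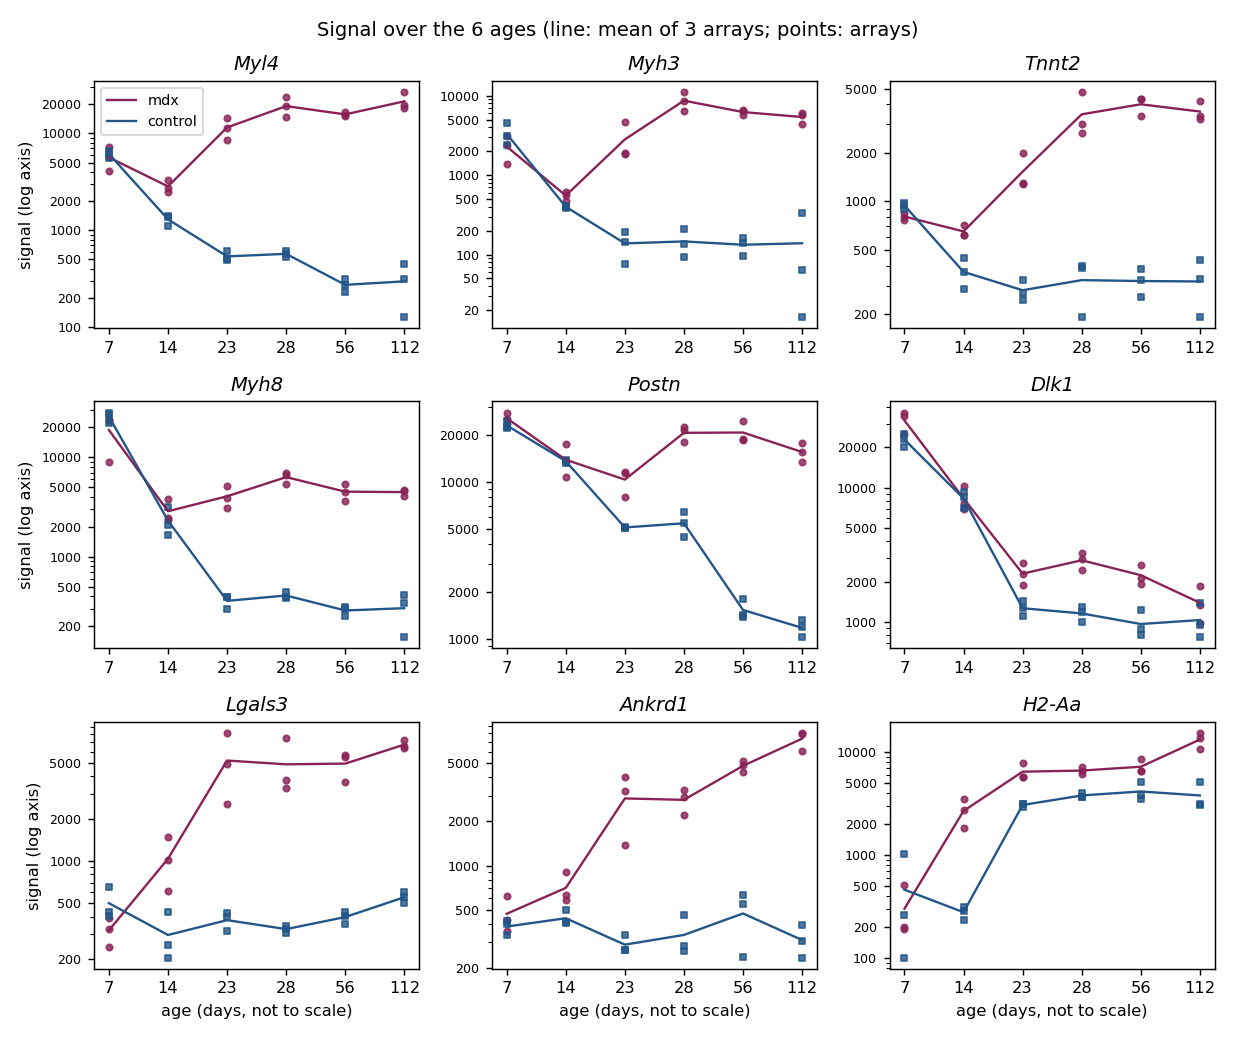
Signal (log axis) of 9 genes at the 6 ages, which are evenly spaced and not to scale, in mdx and in control, with a point for each array and a line through the means of 3. Myl4, Myh3 and Tnnt2 decline by 14 days in both genotypes and climb again in mdx by 23 to 28 days, whereas Dlk1 declines in both.

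**Figure D5:**
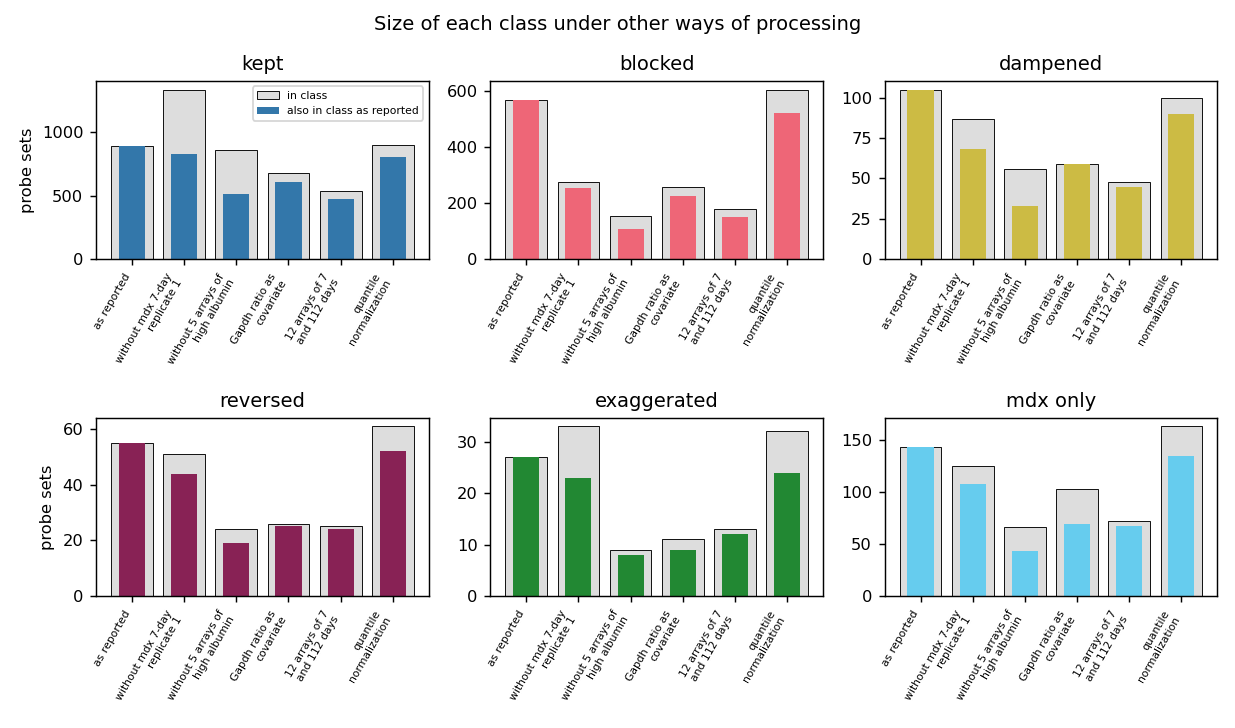
Number of probe sets in each class (grey) and the part of them also in that class as reported (coloured) under 5 other ways of processing, beside the result as reported at the left. The blocked class holds 277 without mdx replicate 1 at 7 days, against 570 as reported, while quantile normalization leaves 607 with 522 shared.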

How the data were processed

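Diaphragm RNA was read on 36 one-sample Affymetrix arrays of 12488 probe sets, 3 for each genotype and age. The deposited values are intensities on a linear scale, made per the labels by the standard Affymetrix protocol, with software not given in the sources used here. They had been scaled before deposit, since their mean between percentiles 2 and 98 was 1499.2 to 1499.7 on every array. Their number, 3 in a group, limits the precision.

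After 66 control probe sets were left out, the 9291 probe sets that exceeded 374.5 (percentile 40 over the whole table) on 3 or more arrays were tested. The log2 of value + 32 was fitted with limma 3.58.1 (R 4.3.3) over 12 group means and all 36 arrays (24 residual degrees of freedom, moderated with a trend). P-values were adjusted by Benjamini and Hochberg over all tested probe sets, at 0.05, and the script was tested on simulated data. Fold changes are on the log2(value + 32) scale, which understates dim genes.

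Of the probe sets, 10833 had 1 gene symbol in the platform annotation, 396 several and 1193 none. RefSeq matched 10817 of them. Lists use the brightest probe set of each gene. Named genes are the strongest changes in mdx with separate ages, the strongest of each class, up to 4 per list by adjusted p, and Dmd and Utrn. Members and lists were chosen with earlier results of these data known. Alternatives varied the pseudocount, filter, normalization, array weights, arrays, covariate, replicate block and threshold. The alternative without the arrays of high albumin also left out the arrays of 14 and 56 days with albumin above 10000. Same-numbered arrays deviated together between the control ages (correlations of 0.139, 0.177 and 0.347) but not between the mdx ages (-0.212, -0.13 and -0.0616) or between the genotypes at 112 days (0.0314, 0.0545 and -0.147) or 7 days (-0.225, -0.193 and -0.0888), and no label says what a number marks. The block was therefore an alternative only.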

Additional observations from a re-analysis of the deposited data

Results flagged for a closer look

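For 56 named probe sets the age change differed between the genotypes by limma's interaction test over all probe sets, and the values below are the log2 age change in mdx minus that in control. In 40 of them the call was kept without any single 1 of the 12 arrays, and in 16 it was lost without at least 1. Without the 5 arrays of high albumin 26 of the 56 lost the call.

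Among muscle genes the difference was 6.30 for Myl4, 6.04 for Myh3, 4.41 for Myh8, 3.65 for Tnnt2, 3.53 for Mybph, 3.43 for Bex1 and -3.27 for Tsc22d3. For Ankrd1 it was 4.21 and for Mt2 2.71. Among matrix and adhesion genes it was 4.57 for Npnt, 3.54 for Postn, 3.44 for C1qtnf3, 3.04 for Pcdh7, 2.94 for Tnc, 2.92 for Adam19 and 3.00 for Capn6 (97942_g_at). Proteases had 3.93 for Mmp9, 3.37 for Mmp3 and 3.02 for Mmp12 (95339_r_at).

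Among immune genes the difference was 4.13 for Lgals3, 3.93 for Cd53, 3.64 for Cxcl9, 3.16 for Ncf4 and 2.99 for Cd72. It was 2.78 for Otulinl (95940_f_at), 2.73 for Ctss and 2.67 for Lilr4b. The other Otulinl probe sets gave 1.31 (95939_i_at, adjusted p = 0.0359) and -1.89 (162211_r_at, adjusted p = 0.258). H2-Ab1 had 2.34, H2-Aa 2.01 and Cd74 1.03, and the calls of H2-Aa and Cd74 were lost without 6 and 4 single arrays. Among the growth genes Mest had 1.77, Meg3 (160173_at) 0.98 and Kcne1l 2.00, and those of Meg3 and Kcne1l were lost without 8 and 7 single arrays. B4galnt1, an enzyme of ganglioside synthesis, had 2.91, lost without 2.

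Blocked or dampened rises had -6.23 for Rpl41 (100213_f_at), -3.68 for Rhou (162011_f_at), -3.59 for Ces1d (101538_i_at), -2.57 for Amy1, -2.0 for Adig and -1.56 for Ckmt2 (162015_f_at). Mob2 had -3.11, Kif9 -3.03, Cela1 -2.95 and Scd1 (94056_at) -1.55, lost without 9, 9, 3 and 4 single arrays. The other Scd1 probe sets gave -1.37 (94057_g_at, adjusted p = 0.0738) and 0.18 (94058_r_at, adjusted p = 0.933). Endothelial and red cell genes had -0.80 for Cdh5, -0.86 for Sox18, -0.93 for Ptprb and -1.33 for Alas2, the last pair lost without 9 each. Among mdx-only falls Dipk1b had -2.37, Efnb2 -1.78 and Bmp6 (161028_at) -1.53. Proc (95585_at) had -2.55, Ubr4 (161314_r_at) -2.53, AU021092 -1.86, Lpin2 -1.58 and Krt7 -1.56, lost without 6, 7, 2, 2 and 2 single arrays. The other probe sets passed no test of the difference, with -0.25 for Proc (161656_r_at, adjusted p = 0.83) and 0.18 for Ubr4 (104041_at, adjusted p = 0.614).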

How the results depend on the processing

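All alternatives listed were run. With the 12 arrays of 7 and 112 days alone, 454 rises and 498 falls were called in mdx, 255 higher and 83 lower differences, 2 probe sets between genotypes at 7 days and 660 at 112 days, and the classes held 533 kept, 13 exaggerated, 48 dampened, 180 blocked, 25 reversed and 72 mdx-only probe sets. With the 6 mdx arrays alone there were 303 rises and 299 falls. At an adjusted p of 0.01 there were 450 rises and 495 falls in mdx, 1168 rises in control, 296 higher and 108 lower differences, 17 and 671 between genotypes at 7 and 112 days, and 493 kept, 12 exaggerated, 49 dampened, 225 blocked, 23 reversed and 83 mdx-only. With the Gapdh ratio as a covariate, control had 1187 rises and 1104 falls, the differences were 299 higher and 166 lower, 10 probe sets differed at 7 days, and 11 were exaggerated, 59 dampened, 258 blocked and 26 reversed. Without the 5 arrays of high albumin, control had 1036 rises, the differences were 253 higher and 58 lower, 13 and 605 differed at 7 and 112 days, and 9 were exaggerated, 56 dampened, 156 blocked, 24 reversed and 66 mdx-only. Array weights gave 71 probe sets different at 7 days. The cause of these shifts was not tested, apart from the smaller number of arrays or the stricter threshold where the setting has one.

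Leaving out each of the 12 arrays in turn gave 519 to 1078 rises and 557 to 1077 falls in mdx, 1425 to 2074 rises and 1564 to 1945 falls in control, 391 to 677 higher and 187 to 478 lower differences, and 17 to 59 and 893 to 1292 probe sets different at 7 and 112 days. The classes ran from 606 to 1334 kept, 17 to 33 exaggerated, 70 to 110 dampened, 277 to 762 blocked, 41 to 66 reversed and 118 to 167 mdx-only. The fewest blocked came without mdx replicate 1 at 7 days and the most without control replicate 3 at 112 days. Of the results for named genes under all alternatives, 2491 kept direction and side of the threshold, 259 kept direction and lost the call, and 1 reversed, Utrn (92508_s_at) in mdx at 0.025 (adjusted p = 0.978) without the arrays of high albumin. With the replicate block there were 747 rises and 832 falls in mdx, 1953 rises and 1867 falls in control, 546 higher and 288 lower differences, and 884 kept, 23 exaggerated, 94 dampened, 514 blocked, 56 reversed and 133 mdx-only. Of the named results, the block ended the call of the differences of Kif9 (-3.03, adjusted p = 0.0504), Alas2 (-1.33, adjusted p = 0.0551) and Ptprb (-0.93, adjusted p = 0.0556), and changed no other call.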
